A study of Mus musculus with 4 samples.

Results

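The HoxB genes are the 10 Hox genes of mouse chromosome 11: Hoxb1, Hoxb2, Hoxb3, Hoxb4, Hoxb5, Hoxb6, Hoxb7, Hoxb8, Hoxb9 and Hoxb13. They were taken by name, as 10 of 21938 protein-coding genes, and a peak was counted for a gene if it overlapped the gene or 5 kb on either side (the gene's window). Joined, these windows spanned 116 kb and held 33 peaks in 4 ATAC-seq peak lists, which merged into 24 of the 44692 regions of the series. ATAC-seq finds open chromatin by the insertion of sequencing adapters by the Tn5 transposase. The tissue was the posterior part of the forelimb bud of Swiss Webster mouse embryos at E10.5 (35 somites), from 2 wild-type (WT) and 2 Shh-/- embryos, 1 embryo per library. Shh-/- embryos carried the Shh tm1amc null allele and lacked the Hedgehog ligand Sonic hedgehog in every cell. Only the genotype differed by label, and no cell type was isolated from the buds. Values of the lists are given in the order WT replicate 1, WT replicate 2, Shh-/- replicate 1, Shh-/- replicate 2 where no list is named. The comparison asked which chromatin was open with and without Hedgehog signaling.

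Hox genes encode homeodomain transcription factors that give cells their position along the head-to-tail axis. The genes of a cluster are all transcribed in the same direction, and genes at the 3′ end, such as Hoxb1, are turned on earlier and further towards the head than genes at the 5′ end, such as Hoxb13. In the forelimb, HOX proteins of the middle of the clusters act in the lateral plate mesoderm where the limb field forms, upstream of the forelimb gene Tbx5, and HoxA and HoxD genes then pattern the bud itself. PBX and MEIS proteins bind DNA together with HOX proteins, and retinoic acid receptors and CTCF, a protein that binds the borders of chromatin domains, act within Hox clusters.

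The sequences below were read from the mm10 genome (GRCm38) and are written 5′ to 3′ on the + strand, the strand of all 10 genes, 200 bases centred on a peak's summit (the best ranked where several lists had one), less any untranslated bases. They are the Hoxb4 region and the Hoxb3 region that were called in 3 lists, the part of the only region with a peak in Shh-/- replicate 1 that is not in an untranslated exon, the highest scoring HoxB peak (in Hoxb8), the Hoxb9 region called in both genotypes, and the 2 regions that held a CTCF core. Capitals mark matches to the motifs searched.
Hoxb4, 29 coding bases and then intron, chr11:96319195-96319394: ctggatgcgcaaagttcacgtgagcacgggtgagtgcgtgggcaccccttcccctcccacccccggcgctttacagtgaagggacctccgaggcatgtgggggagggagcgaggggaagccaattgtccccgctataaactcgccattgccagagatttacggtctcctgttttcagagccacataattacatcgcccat
Hoxb3 intron and Gm11536 exon, chr11:96341874-96342073: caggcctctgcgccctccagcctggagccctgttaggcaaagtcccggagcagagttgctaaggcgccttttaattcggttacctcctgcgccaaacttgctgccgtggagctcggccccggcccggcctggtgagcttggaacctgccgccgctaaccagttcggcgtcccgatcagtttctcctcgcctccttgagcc
Hoxb3 and Gm11536 intron, chr11:96341152-96341237: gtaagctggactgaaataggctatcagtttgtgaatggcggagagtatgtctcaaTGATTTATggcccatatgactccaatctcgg
Hoxb8 intron end and then 189 coding bases, chr11:96284152-96284351: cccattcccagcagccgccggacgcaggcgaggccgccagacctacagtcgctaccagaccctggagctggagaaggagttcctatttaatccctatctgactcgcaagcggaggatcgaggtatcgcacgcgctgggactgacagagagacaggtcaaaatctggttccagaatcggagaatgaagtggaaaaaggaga
Hoxb9 coding exon, chr11:96271818-96272017: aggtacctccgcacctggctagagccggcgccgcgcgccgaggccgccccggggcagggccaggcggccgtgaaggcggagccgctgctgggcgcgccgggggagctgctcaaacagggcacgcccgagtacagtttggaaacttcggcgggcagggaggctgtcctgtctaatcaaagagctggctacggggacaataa
Upstream of Hoxb4, intergenic, chr11:96315054-96315253: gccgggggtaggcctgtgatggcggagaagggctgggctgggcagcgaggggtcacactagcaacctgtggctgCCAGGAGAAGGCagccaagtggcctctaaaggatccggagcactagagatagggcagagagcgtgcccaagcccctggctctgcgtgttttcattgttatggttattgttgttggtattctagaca
Hoxb3 and Hoxb3os intron, chr11:96344773-96344972: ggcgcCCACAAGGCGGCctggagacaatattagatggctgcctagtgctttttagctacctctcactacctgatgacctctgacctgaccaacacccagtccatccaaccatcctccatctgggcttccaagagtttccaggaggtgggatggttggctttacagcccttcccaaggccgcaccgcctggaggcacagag

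RefSeq promoter sequences (GRCm38.p6) were at hand for 3 of the 10 genes, Hoxb1, Hoxb4 and Hoxb8. The 2 that held a HOX-PBX match are printed up to the annotated start of transcription, with the match in capitals. No list had a peak over either printed stretch. Hoxb1 is known to maintain its own expression in the hindbrain through sites bound by HOX and PBX proteins.
Hoxb1 promoter, chr11:96365508-96365751: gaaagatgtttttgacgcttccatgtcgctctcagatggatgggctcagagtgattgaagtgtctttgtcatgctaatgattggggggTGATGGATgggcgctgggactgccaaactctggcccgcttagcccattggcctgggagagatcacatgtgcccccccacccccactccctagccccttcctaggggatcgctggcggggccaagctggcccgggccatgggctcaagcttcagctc
Hoxb8 promoter, chr11:96281655-96281904: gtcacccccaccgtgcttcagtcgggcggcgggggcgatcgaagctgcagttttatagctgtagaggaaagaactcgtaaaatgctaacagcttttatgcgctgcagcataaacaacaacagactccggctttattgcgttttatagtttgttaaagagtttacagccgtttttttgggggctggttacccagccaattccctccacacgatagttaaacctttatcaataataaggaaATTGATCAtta

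The 4 lists differed in length before any HoxB gene was looked at. WT replicate 1 had 39080 peaks, WT replicate 2 had 11973, Shh-/- replicate 1 had 5589 and Shh-/- replicate 2 had 18459, and the lists hold no read counts, so the depth behind them is unknown. The order of the lists by HoxB peaks was the same as their order by length, with 19, 4, 1 and 9 peaks. Among markers of forelimb mesenchyme, a promoter peak was called for 6, 3, 3 and 4 of 6 genes (100%, 50%, 50% and 66.7%), where 60.4%, 39.2%, 17.3% and 51.3% of all protein-coding genes had one. Prrx1 and Fgf10 were called in all 4 lists, and Tbx5, which marks the forelimb, in WT replicate 1 alone. Of other cell types, ectoderm had at most 1 of 6 markers called in a list, endothelium at most 1 of 5, blood at most 2 of 5, neural tissue at most 3 of 5, muscle progenitors at most 3 of 4 and hindlimb at most 3 of 3. In WT replicate 1 these counts came to 16.7%, 20%, 40%, 60%, 75% and 100%, so that only muscle and hindlimb markers were above the 60.4% of all genes there. In Shh-/- replicate 2 only the same 2 were above the 51.3% of all genes, muscle at 75% and hindlimb at 66.7%. In WT replicate 2 none was above the 39.2% of all genes. All of these other counts were 0 in Shh-/- replicate 1, the list with the fewest HoxB peaks, and the part of such cells in the HoxB calls was not tested. The Shh gene itself held 2, 0, 0 and 2 peaks, none at its promoter, which is no check of the genotype because the peaks' relation to the deleted part of the gene was not given.

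The peaks of the cluster lay over the block from Hoxb9 to Hoxb2, with little at either end. The joined windows of Hoxb2, Hoxb3 and Hoxb4 (45.7 kb) held 10, 2, 1 and 6 peaks. Those of Hoxb5 to Hoxb9 (44.7 kb) held 8, 2, 0 and 3 peaks, as many as or fewer than those of Hoxb2 to Hoxb4 in each list. The Hoxb1 window (12.5 kb) held 1 peak, in WT replicate 1, and the Hoxb13 window (13.1 kb) held 0 in every list. In sum, 19 of the 33 peaks lay over Hoxb2 to Hoxb4 and 13 over Hoxb5 to Hoxb9.

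**Figure D1:**
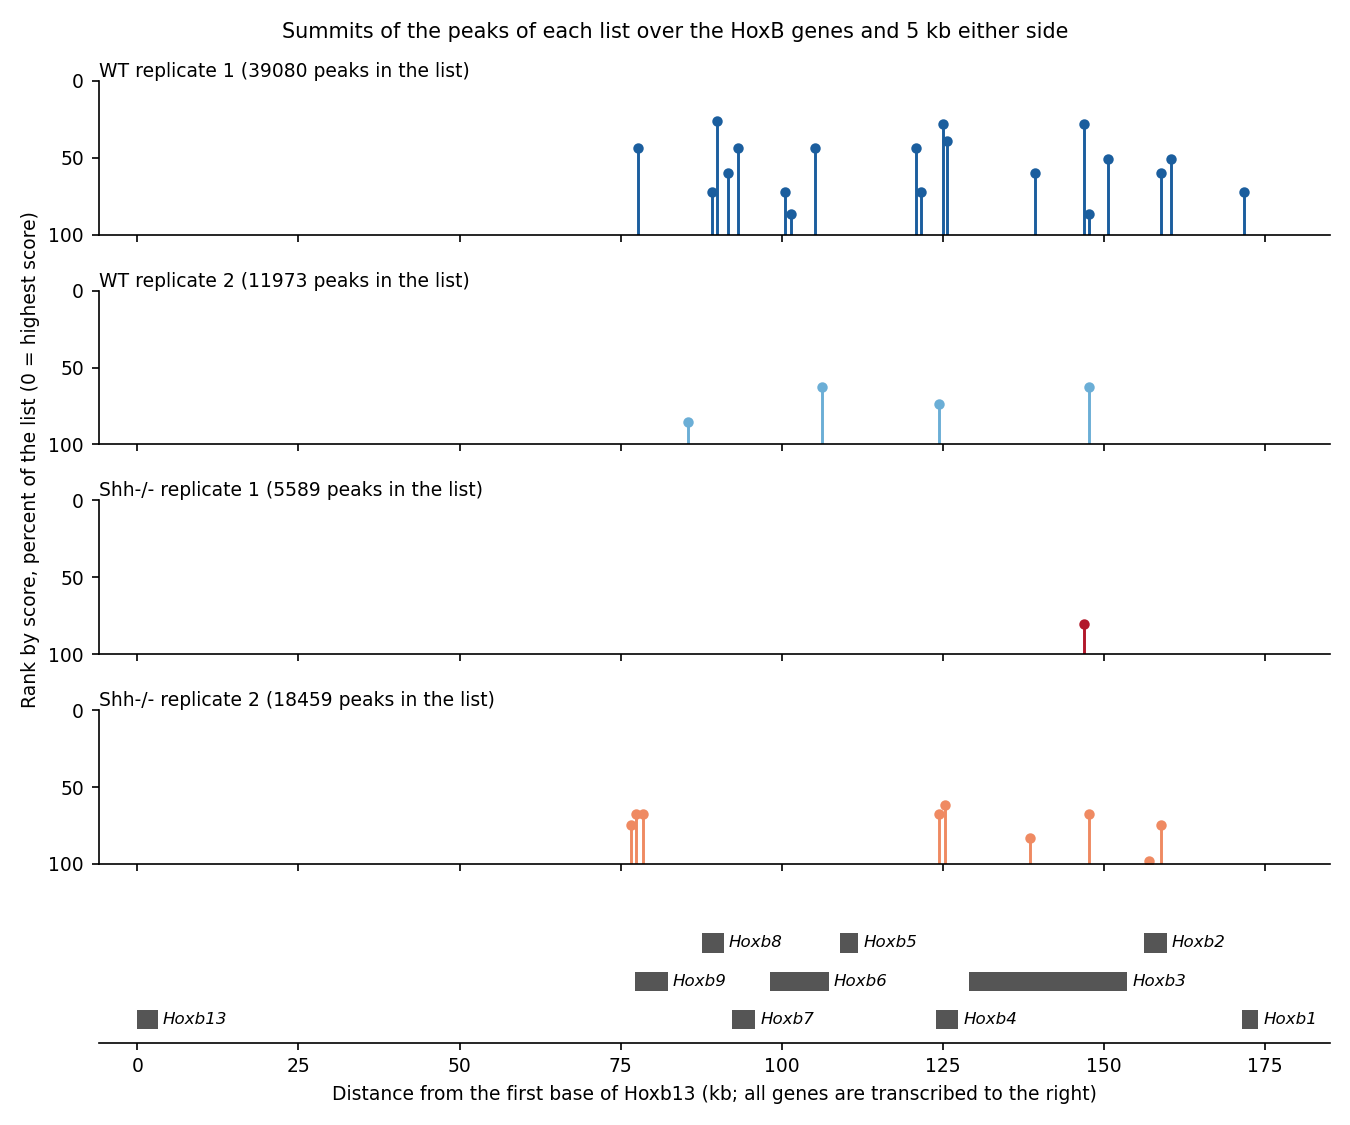
Summits of the peaks of each list, by distance from the start of Hoxb13 (kb, x axis), with height giving the rank of the peak's score as a percent of its list (y axis, 0 at the top is the highest score). Grey boxes are the genes. The 33 summits lie from just upstream of Hoxb9 to Hoxb1, none of the ranks is in the top 25% of a list, and Shh-/- replicate 1 has a single peak at 80.7%.

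In WT replicate 1, HoxB peaks ranked from 25.9% to 86.5% of the list, and in the other lists all were below the list's median score. Peaks were ranked by the score that the authors' peak caller gave them, and rank 1 is the highest score of a list. The best HoxB peak was at rank 10136 of 39080 (25.9% of the list) in WT replicate 1. It was at rank 7510 (62.7%) in the shorter WT list, at 4510 (80.7%) in the shorter Shh-/- list and at 11386 (61.7%) in the longer one. The median HoxB peak was at 50.6%, 68.4%, 80.7% and 67.6% of the list. Below the median score of their own list were 11 of 19, 4 of 4, 1 of 1 and 9 of 9 HoxB peaks. Scores were whole numbers with many ties. The rank of 10136, for example, was shared by 721 peaks, and a rank here is the best that its ties allow. The median length of HoxB peaks was 399, 314, 259 and 363 bp, beside 414, 406, 356 and 515 bp for all peaks of each list. The longest, of 1150 bp, lay over Hoxb9 in Shh-/- replicate 2.

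**Figure D2:**
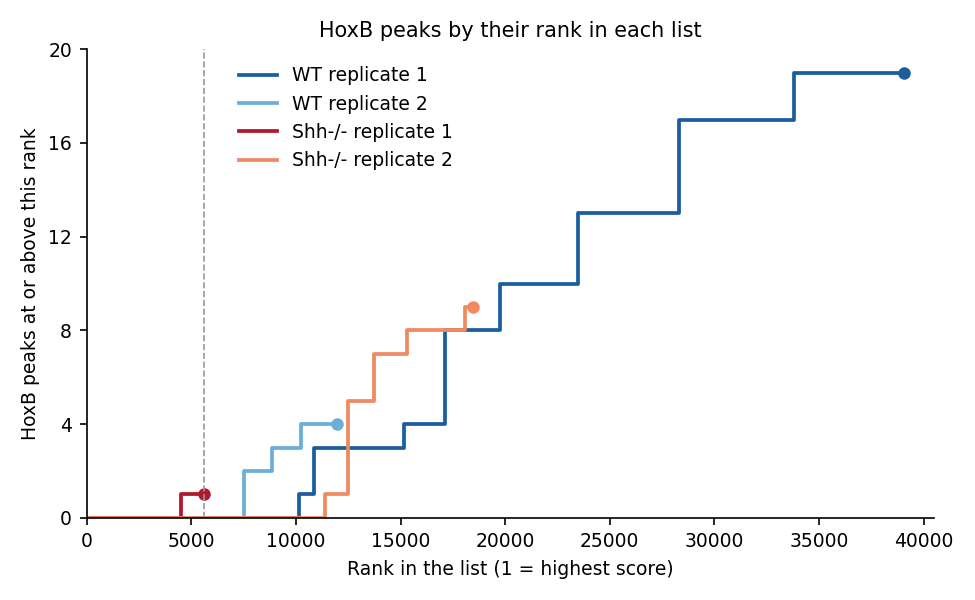
Number of HoxB peaks (y axis) at or above each rank of a list (x axis, 1 is the highest score), 1 line per library, with a dot at the end of each list. The dashed line marks 5589, the length of the shortest list, above which only the peak of Shh-/- replicate 1 falls.

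Between the genotypes, no measure of the whole cluster differed by more than the spread between the libraries. The number of HoxB peaks was 11.5 ± 10.6 in WT and 5 ± 5.66 in Shh-/- (mean ± SD, n = 2 each), a difference of 6.5 with p = 0.667 (two-sided exact permutation test over libraries). With 2 libraries against 2, the smallest p that such a test allows is 0.333, so none of these comparisons could pass 0.05. The groups overlapped, since the second WT list had fewer HoxB peaks than the second Shh-/- list. As a share of the list, HoxB peaks made up 0.0486% (95% Wilson interval 0.0311 to 0.0759) and 0.0334% (0.013 to 0.0859) in WT, and 0.0179% (0.00316 to 0.101) and 0.0488% (0.0257 to 0.0926) in Shh-/-. Intervals cover counting error only, and all 4 overlapped. The difference of the mean shares was 0.00769 percentage points (exact permutation p = 1), on means of 0.041 ± 0.0108% and 0.0333 ± 0.0218%. Peaks covered 8.51 and 1.76 kb of the windows in WT (7.33% and 1.52%) and 0.259 and 4.40 kb in Shh-/- (0.223% and 3.79%). The means of 5.14 ± 4.77 and 2.33 ± 2.93 kb differed by 2.81 kb (exact permutation p = 0.667).

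The direction of these differences was not the same at every list length, and at the shortest length it rested on 1 peak. Within the top 5589 peaks of every list, the length of the shortest, the HoxB windows held 0, 0, 1 and 0 peaks, and the difference between WT and Shh-/- was -0.5 peaks. At that length the lowest score admitted was 209, 49, 19 and 144, while the highest HoxB scores were 93, 34, 34 and 54. Among the 11973 highest scoring peaks, the length of the WT replicate 2 list, WT replicate 1 had 3 HoxB peaks, WT replicate 2 had 4 and Shh-/- replicate 2 had none above the score at the limit and 1 tied with it. Among the 18459 highest scoring peaks, WT replicate 1 had 4, or 8 with ties, and Shh-/- replicate 2 had 9. With shorter lists kept whole, the differences at these 2 lengths were 2.5 and 1 peaks with ties ordered by position. With ties left out they were 3 and -1 peaks. Both lengths were added after the data had been seen. Apart from list length, leaving out WT replicate 1 gave a difference of -1 peak.

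A promoter was taken as 2 kb before to 1 kb after a start of transcription. A promoter peak was called for 7 of 10 HoxB genes in WT replicate 1, where 60.4% of all protein-coding genes had one, and for 2 of 10 in WT replicate 2, where 39.2% had one. In the shorter Shh-/- list 0 of 10 were called beside 17.3% of all genes, and in the longer one 4 of 10 beside 51.3%. The share of HoxB genes was thus above that of all genes in 1 list and below it in the other 3. The mean number called was 4.5 ± 3.54 in WT and 2 ± 2.83 in Shh-/- (n = 2 each), and the difference of 2.5 genes gave p = 0.667 in the exact permutation test. With the whole window in place of the promoter, 9, 6, 1 and 4 genes had a peak, beside 69.1%, 47.6%, 24.0% and 59.2% of all genes. Neighbouring HoxB genes share windows, so 1 peak could count for up to 3 genes.

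No HoxB gene had a promoter peak in all 4 lists, a pattern that 16.1% of all genes had. Hoxb3 and Hoxb4 had one in both WT lists and in Shh-/- replicate 2, as did 37.2% of all genes. That share includes the genes that were also called in Shh-/- replicate 1, which Hoxb3 and Hoxb4 were not. Hoxb9 had one in WT replicate 1 and Shh-/- replicate 2. Hoxb1, Hoxb6, Hoxb7 and Hoxb8 had one in WT replicate 1 alone, the longest list, and Hoxb2 in Shh-/- replicate 2 alone. The share of all genes with these patterns, or with that of Hoxb9, was not counted, so they are descriptions only. Hoxb5 and Hoxb13 had none in any list, like 37.9% of all genes. A promoter peak in both WT lists and no Shh-/- list was found for 0 HoxB genes (1.53% of all genes), and the reverse for 0 (0.00456%).

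**Figure D3:**
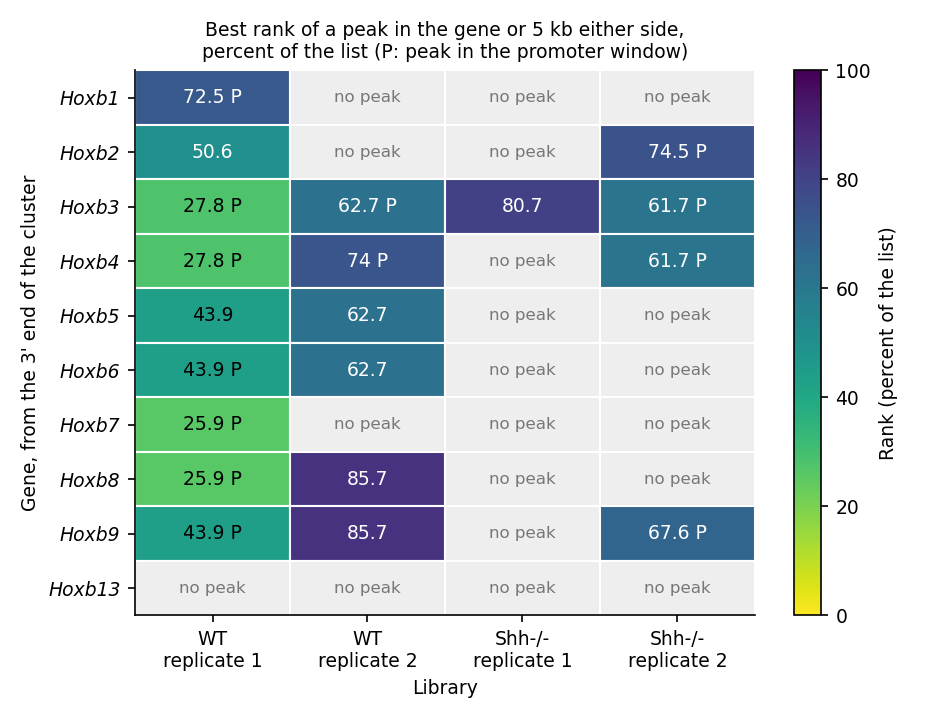
Best rank of a peak in each gene's window, as a percent of the list (number and colour), for the 10 genes from the 3′ to the 5′ end (rows) and the 4 libraries (columns). P marks a gene with a promoter peak, which need not be the best ranked one, and grey marks no peak. WT replicate 1 has a peak for 9 genes and Shh-/- replicate 1 for Hoxb3 alone.

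Hoxb1, at the 3′ end, is known for its role in the hindbrain. It had a single peak, of 388 bp in its coding exon with the summit 204 bp after the start of transcription, in WT replicate 1. This peak had a score of 25 and rank 28321 (72.5% of the list), and the other 3 lists had none.

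Hoxb2, also a hindbrain gene, was called in WT replicate 1 and in Shh-/- replicate 2. Both lists had a peak over its downstream coding exon, at chr11:96352806-96353507, at 60.1% of the list in WT replicate 1 and 74.5% in Shh-/- replicate 2. The antisense transcript Hoxb3os has an exon over the same bases, and ATAC-seq has no strand. A peak at the promoter itself, 286 bp before the start, was found in Shh-/- replicate 2 alone and was among the lowest of that list, with a score of 18 and rank 18105 (98.1%). A further peak 3.01 kb after the start was called in WT replicate 1 alone (50.6%).

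Hoxb3 and Hoxb4 carried the only HoxB regions found in 3 lists. At Hoxb4, whose product acts in blood stem cells and in the trunk, the region chr11:96318587-96320083 ran from the upstream coding exon over the intron into the downstream coding exon. In WT replicate 1 it held peaks with scores of 84 (rank 10857, 27.8%) and 53 (rank 15186), in WT replicate 2 a single peak of 923 bp with a score of 26 (rank 8858, 74%), and in Shh-/- replicate 2 peaks with scores of 46 and 54 (best rank 11386, 61.7%). Shh-/- replicate 1 had no peak there. The summits did not lie at 1 place: that of WT replicate 2 was 419 bp after the start of transcription and that of the nearer Shh-/- replicate 2 peak 421 bp after it, 2 bp apart, while the summits of WT replicate 1 were 1028 and 1674 bp after it. Upstream of Hoxb4, WT replicate 1 had peaks with summits 3.11 and 2.35 kb before the start (43.9% and 72.5%), outside genes, and no other list had a peak at either.

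The Hoxb3 region called in 3 lists, chr11:96341710-96342260, lay in the intron of the longer Hoxb3 transcript and ahead of the shorter one. Its summits were 1850, 1795 and 1836 bp before the start of the shorter transcript in both WT libraries and Shh-/- replicate 2, respectively. They were nearer to the start of Gm11536, an antisense transcript annotated there, at 189, 134 and 175 bp, so the call counts for Hoxb3 only by the width of the promoter window. The region was at 86.5%, 62.7% and 67.6% of the lists, respectively. No list had a peak at the promoter of the longer transcript.

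The region chr11:96340960-96341408 held the only HoxB peak of Shh-/- replicate 1. Its score there was 34, at rank 4510 (80.7%), and WT replicate 1 had a peak over the same region with a score of 84 at rank 10857 (27.8%). WT replicate 2 and Shh-/- replicate 2 had none. Hoxb3 has an untranslated exon in it, and the printed intron stretch next to that exon holds the HOX-PBX match TGATTTAT. In the Hoxb3 intron further upstream, Shh-/- replicate 2 had a peak at chr11:96332723-96333085 (83% of the list) and WT replicate 1 one at chr11:96333125-96333626 (60.1%). These peaks lay side by side without overlap and were counted as separate regions.

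Hoxb5, whose paralogues act in the forelimb field, had no promoter peak. The window peaks counted for it in WT replicate 1 (43.9%) and WT replicate 2 (62.7%) both lay over Hoxb6. Just beyond the Hoxb5 window, WT replicate 2 and Shh-/- replicate 2 each had a peak, at chr11:96311771-96312115 and chr11:96311784-96312020, starting 650 and 663 bp outside it. Their ranks were 74% and 98.1%, and they are not among the 33.

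Hoxb6, Hoxb7 and Hoxb8 had most of their peaks in WT replicate 1. Hoxb6 had a promoter peak there over its coding exon, 341 bp after a start (43.9%), and intronic peaks at 72.5% and 86.5%. WT replicate 2 had a peak of its own in the Hoxb6 intron, chr11:96300331-96300641 (rank 7510, 62.7%), where WT replicate 1 had none. Hoxb7 had 3 promoter peaks in WT replicate 1 and none in the other lists. One of these, chr11:96284184-96285159, was the highest scoring HoxB peak of all lists, with a score of 93 at rank 10136 (25.9%). It lies in the downstream exon of Hoxb8, the exon that carries the homeobox in Hox genes, and its summit was 1527 bp after the nearest start of Hoxb8. Hoxb8 can induce a second signaling center when expressed in the anterior limb bud. Its own promoter peak, also in WT replicate 1 alone, lay 698 bp after the downstream of its 2 starts (72.5%). In WT replicate 2 the only peak near Hoxb8 was 2.23 kb before its upstream start (85.7%).

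Hoxb9, one of the Hox genes whose paralogues set the posterior part of the forelimb field, was the member with the most peaks in Shh-/- replicate 2 apart from Hoxb3. The region chr11:96271264-96272413 over its coding exon was called in WT replicate 1 (score 45, rank 17141, 43.9%) and in Shh-/- replicate 2 (score 46, rank 12483, 67.6%), with summits 395 and 206 bp after a start. Further peaks in Shh-/- replicate 2 lay 570 bp before the upstream Hoxb9 start (74.5%) and 1235 bp after the downstream one (67.6%). No other list had these peaks. In WT replicate 2 the only peak in its window was the one upstream of Hoxb8, and Shh-/- replicate 1 had none.

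Hoxb13, the 5′ gene, which is used in the tail and the prostate, lies 74 kb from Hoxb9. The peak nearest to its start was 48.3, 85.3, 118 and 76.5 kb away in the 4 lists. Between Hoxb13 and Hoxb9 there were 0 peaks in 3 lists and 2 in Shh-/- replicate 2, both of them at the Hoxb9 promoter. The absence of a call says only that the caller found no peak, not that the chromatin was closed.

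As regions, the HoxB calls were mostly those of a single list, as were most regions of the whole series. Of the 24 merged regions, 19 were called in 1 list alone, beside 64.2% of all regions, and 0 in all 4, beside 7.97%. Those of 1 list alone came from WT replicate 1, the longest list, in 13 cases, from WT replicate 2 in 2 and from Shh-/- replicate 2 in 4. How all regions split by library, or were shared by pairs of lists, was not counted. The 2 WT libraries shared 2 regions, and both were also called in Shh-/- replicate 2, which shared 4 with WT replicate 1. The 2 Shh-/- libraries shared 0, where Shh-/- replicate 1 had only 1 HoxB region to share. Therefore 0 HoxB regions were called in both WT and no Shh-/- library (2.09% of all regions) and 0 in both Shh-/- and no WT library (0.396%).

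Peaks were counted only in a gene or 5 kb on either side, which in part fixes their positions. Shares of all regions were not counted for the positions that follow. Of the 33 summits, 22 lay after the nearest HoxB start of transcription, 8 of them within 1 kb of it, and 3 lay within 1 kb before a start. Of the 24 regions, 11 overlapped a HoxB promoter window, 7 overlapped a coding exon of a HoxB gene and 5 overlapped no gene. Around the summits (200 bp), GC content had a median of 59% (48 to 69.5%), beside 55.5% in all regions, and the observed over expected frequency of CpG had a median of 0.626, beside 0.332. The Hoxb9 coding exon printed above had the highest GC content, 69.5%, with 21 CpG in 200 bases. These are descriptions, since neighbouring regions are not independent.

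Motifs were searched on both strands in 200 bp around the summit of each region, and a match is a match of letters only. The HOX-PBX motif TGATNNAT was found in 1 of 24 HoxB regions, at Hoxb3, and in 5.09% of all regions. In RefSeq promoters it was found in 2 of 3 HoxB genes, Hoxb1 (TGATGGAT) and Hoxb8 (ATTGATCA, its reverse strand), and in 8.85% of all promoters. The CTCF core (CCANNAG, then GGC after 2 bases) was found in 2 regions, upstream of Hoxb4 and in the Hoxb3 intron, both called in WT replicate 1 alone, and in 2.44% of all regions. The GLI motif GACCACCCA, bound by the transcription factors of the Hedgehog pathway, had no match in the 24 regions, also with 1 mismatch, beside 0.304% and 5.61% of all regions. Repeats of GNTCA separated by 6 or 3 bases, a form bound by retinoic acid receptors (spacings of 5 and 2 in the usual notation), had no match either, beside 0.653% and 0.859%.

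Set beside the other clusters, HoxB had fewer promoter calls than HoxD in 3 lists and the same number, 0, in Shh-/- replicate 1. HoxA genes were called in 10, 2, 2 and 9 of 11, HoxC genes in 7, 2, 2 and 4 of 9, and HoxD genes in 9, 4, 0 and 6 of 9. HoxB windows held 16.4, 3.45, 0.862 and 7.76 peaks per 100 kb, and the windows of the other clusters together 18.5, 3.28, 2.68 and 9.53. Taken singly, HoxA had 22.9, 2.65, 2.65 and 13.2, HoxC 13.3, 3.34, 4.17 and 5, and HoxD 19.6, 3.91, 0.978 and 10.8. HoxB was thus denser than HoxC in every list but Shh-/- replicate 1. It was denser than HoxA in WT replicate 2 alone and than HoxD in no list. The HoxB windows include that of Hoxb13 (13.1 kb), which held no peak. Against the other clusters together, HoxB was less dense in 3 of 4 libraries. The mean difference was -1.38 peaks per 100 kb, with p = 0.25 in an exact sign-flip test over libraries, whose smallest p is 0.125. This comparison was added after the data had been seen. At equal list size, HoxA promoters were called in 0, 0, 2 and 3 genes and HoxC promoters in 0, 0, 2 and 1, while HoxB and HoxD promoters were called in none. In Shh-/- replicate 1, whose list is whole at that size, 17.3% of all protein-coding genes were called. For the other lists the share of all genes at that size was not counted.

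**Figure D4:**
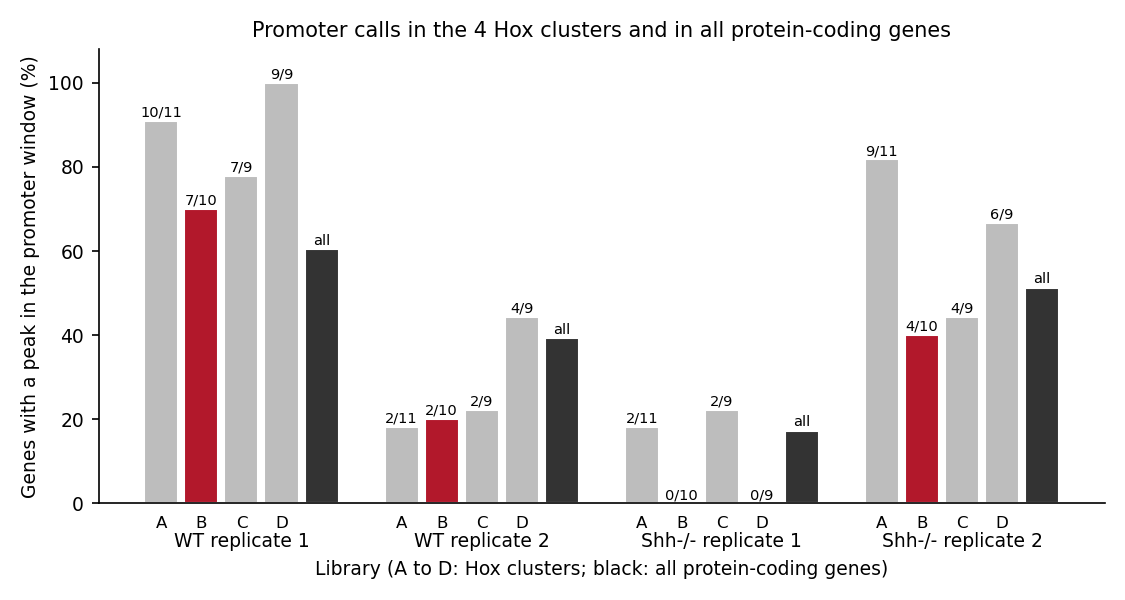
Percent of genes with a promoter peak (y axis) in the HoxA, HoxB (red), HoxC and HoxD clusters and among all protein-coding genes (black), for each library (x axis), with the counts of genes above the bars. HoxB stands at 70%, 20%, 0% and 40%, above all genes in WT replicate 1 alone.

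The best ranked peaks around the cluster stood higher in the same lists than those within it. In the windows of the 6 nearest protein-coding genes, the best peak was at rank 124, 168, 54 and 165. These windows were longer, 434 kb beside 116 kb for HoxB. They held fewer peaks per 100 kb, 1.84, 0.922, 0.692 and 0.922, beside 16.4, 3.45, 0.862 and 7.76 in HoxB. A promoter peak was called for 3, 2, 2 and 3 of the 6 (50%, 33.3%, 33.3% and 50%), which was below the share of all genes in 3 lists and above it in Shh-/- replicate 1. Atp5g1, a subunit of ATP synthase, and Snx11, a sorting nexin, were called in all 4 lists.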

How the data were processed

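ATAC-seq was done on 4 libraries, grouped by the genotype in their titles. Per the submitters' processing notes, reads were processed with Bowtie2 2.2.5 and MACS2 2.1.0 in mm10 coordinates. The authors called peaks in each library separately (q-value cutoff 0.05, 200 bp window). Each peak was deposited with a position, a summit and a score, which by the caller's format is 10 times the highest −log10 q in the peak, a scale the files do not state. Fold, p-value and q-value columns held 0 and were not used. The lists were not normalized to each other, so scores served only for ranks within a list.

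Peaks were matched to GENCODE M21 (basic set) with Python 3.11.15 and numpy 2.4.6, and sequences were read with pysam 0.24.0. Peaks of the 4 lists overlapping by 1 bp or more were merged into regions. The overlap and rank code was tested on simulated data. Group means were compared by two-sided exact permutation tests over libraries. All 10 genes are named, in full those called in 3 or more lists or in none, with every region of 1 genotype alone. The genes, lists and tests were chosen with earlier results of these data known. Alternatives were equal list sizes, a score minimum of 50, an overlap of 100 bp, other windows and promoters, no merging, each library left out and a replicate block. The limma fit of the study needs signal values and was not made. Another gene list that was counted is not reported here.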

Additional observations from a re-analysis of the deposited data

How the results depend on the processing

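At equal list size, with tied scores ordered by position or left out, the differences between WT and Shh-/- turned to -0.5 HoxB peaks, -0.00895 percentage points of the list and -0.13 kb covered, and that in promoter genes to 0. Of the 20 pairs of a gene and a library with a peak, 19 lost it at equal list size and 14 at a score of at least 50. Leaving out 1 library at a time gave differences of -1 to 14 peaks, -0.00774 to 0.0231 percentage points, -0.567 to 6.18 kb and 0 to 5 promoter genes. It also gave 0 to 2 genes with a promoter peak in every remaining list, 0 to 13 regions of WT alone and 0 to 4 of Shh-/- alone, and fewer lists to be called in is part of how such counts are made. The negative values came without WT replicate 1 for peaks and length, and without Shh-/- replicate 1 for the share. The other alternatives in the choice of window, promoter, overlap or score kept the direction of these differences. A score of at least 50 gave 1.5 peaks and 0.5 promoter genes, and the outermost start alone 1 promoter gene. The list lengths of 11973 and 18459 were added after the data had been seen. Shorter lists were kept whole, Shh-/- replicate 1 at both lengths and WT replicate 2 at 18459. Lists therefore still differed in length. With tied scores ordered by position, the differences were 2.5 and 1 peaks and 1.5 and 1 promoter genes. With ties left out they were 3 and -1 peaks and 2 and 0 promoter genes, so the direction at 18459 turned with the ties. With the replicate number as a block, the differences of 6.5 peaks, 0.00769 percentage points, 2.81 kb and 2.5 genes all had p = 1 in an exact sign-flip test, whose smallest p is 0.5. Replicates of the same number differed by 18 and -5 peaks, and the labels do not say that a number marks a shared litter or day. The difference in peak density between HoxB and the other clusters was -0.976 per 100 kb at equal list size and -1.9 at a score of at least 50. Depth is unknown from the files, so a missing call sets no limit on accessibility.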
